A study of Danio rerio with 12 samples.

Results

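Zebrafish that had fought their own mirror image were compared with zebrafish that had met no opponent, on 6 of the 12 Affymetrix GeneChip Zebrafish Genome Arrays of the study, 3 arrays for each of these groups. The arrays of each group were taken by their titles, Mirror and Isolation. The comparison itself was chosen with earlier results of these data known, among them that the hybridization controls of these groups read alike. All animals were adult wild-type fish of the AB strain, and RNA came from the whole brain. Every fish, the controls included, had spent 5 days alone before the experiment, so that the comparison sets a mirror fight on top of isolation against isolation continued. Sampling of the brain followed 30 min of the manipulation. The other 6 arrays held winners and losers of fights with a real opponent, 3 each. They serve to place the mirror values, and their spread enters the standard errors and p-values, which were fitted to all 12 arrays. Fish respond to a mirror image as to an intruder, and such a fight has neither a winner nor a loser.

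The comparison asks what a fight without an outcome leaves in brain RNA shortly after its start. Neurons that have just been strongly active transcribe a set of immediate early genes, among them the Fos and Egr factors and npas4a, whose products then control later genes. A second route is hormonal. In fish, as in mammals, a challenge activates the hypothalamus, pituitary and interrenal gland, the fish counterpart of the adrenal cortex, and cortisol reaches brain cells and acts through the glucocorticoid receptor on target genes such as fkbp5, klf9 and tsc22d3. In zebrafish, clock genes, including cryptochromes and period genes, respond to light and to the time of day.

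A probe set is a group of short probes for 1 transcript, and values are log2 of its deposited intensity, so that a difference of 1 is a doubling. No probe set passed the test between mirror fighters and isolated fish. Limma called 0 of 15502 probe sets (0%) at a Benjamini-Hochberg adjusted p under 0.05, and the smallest adjusted p was 0.135. At an unadjusted p under 0.05 there were 594 (3.83%), where 5% would be expected with no difference between the groups. Of the 594, 249 were higher in mirror fighters (1.61%) and 345 lower (2.23%). Centring each array on its median turned that split to 356 higher and 270 lower. The mirror and isolated arrays did not overlap at 1662 probe sets (10.7%), where 10% would be expected with no difference. All 3 mirror arrays lay above all 3 isolated arrays at 766 probe sets (4.94%) and below them at 896 (5.78%). That split too turned with the scaling, to 1098 above and 650 below after centring and 855 and 810 after quantile normalization. The median size of a difference was 0.14, and 291 probe sets (1.88%) differed by more than 1. Of these, 159 were among the dimmest 25% of the array, called dim below. The gene differences that follow are therefore values with their standard errors (SE, n = 3 arrays per group) and not calls, and their unadjusted p-values are read against these shares. Whether 1 fish or several supplied the RNA of an array is not given in the labels, so the p-values cover the spread between these samples, which may be technical. The number of arrays limits the precision.

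**Figure D1:**
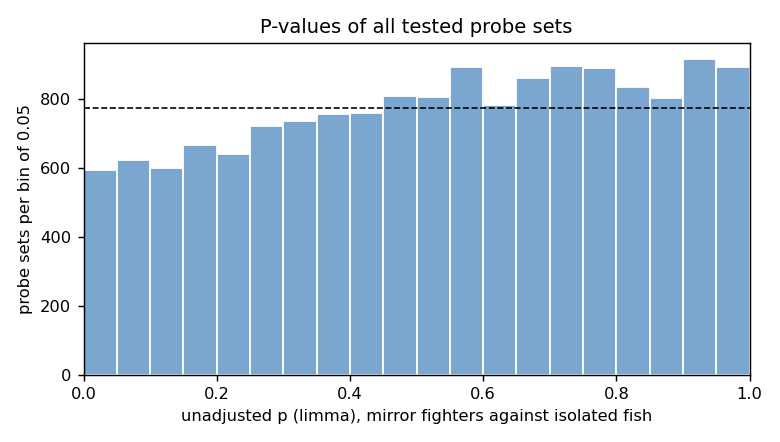
Unadjusted limma p-values of all 15502 probe sets for mirror fighters against isolated fish (x axis) in bins of 0.05 (y axis, probe sets per bin), with the mean bin height as a dashed line. The lowest bin holds 594 probe sets and lies below the dashed line.

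The technical readings of these groups were as follows. The bacterial hybridization controls, RNA spiked in before the array step, averaged 9.40 ± 0.10 (SD, n = 3) in mirror fighters and 9.37 ± 0.12 in isolated fish and were known to be similar when the groups were chosen. The cre control was lower on every mirror array, by 0.08 (two-sided exact permutation p = 0.1, the smallest value that 3 arrays against 3 allow). The poly-A controls, added before labelling, spread over 6.25 to 6.78 on the mirror arrays and 6.67 to 6.69 on the isolated arrays, with mirror array 2 lowest and mirror array 3 highest. The median of all probe sets was lower by 0.04 in mirror fighters (exact permutation p = 0.1). Of the measured neuronal markers 0 of 20 were dim, against 19 of 28 liver and plasma protein genes and 13 of 35 genes of retina, lens, muscle or pituitary. Winner and loser arrays were brighter in the hybridization controls, at 9.99 to 10.76, against 9.27 to 9.51 on the mirror and isolated arrays. The part of this gap in any difference between real fights and the mirror fight was not tested.

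Immediate early factors held some of the smallest p-values, while the smallest of all belonged to an unnamed probe set that stood lower. Of the 50 probe sets with the smallest p, 29 stood lower and 21 higher. Of the 12 named genes that stood higher in mirror fighters, 6 belonged to the early response lists, headed by egr2b, fosab and npas4a. The gene egr2b encodes a zinc finger transcription factor of the Egr family. It read 6.15, 6.20 and 6.20 on the isolated arrays and 7.30, 6.99 and 6.99 on the mirror arrays. The isolated arrays lay within 0.05 of each other, and the lowest mirror array stood well above them. The difference was 0.91 ± 0.13, or 1.87-fold (unadjusted p = 2.61e-05, adjusted p = 0.135). The related egr4 read 7.76, 7.28 and 7.48 in isolated fish and 8.14, 8.39 and 9.03 in mirror fighters, a difference of 1.02 ± 0.26 without overlap, with mirror array 3 highest. The other measured Egr genes, egr2a (0.44 ± 0.21) and egr1 (0.38 ± 0.28), leaned the same way. The egr1 arrays of the groups overlapped, as did those of egr2a. All 4 measured Egr genes were thus above 0, with a median of 0.67, where the median over all single-symbol genes was 0.01 and 50.8% of all probe sets were above 0.

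The c-Fos gene fosab, a subunit of the AP-1 factor and the classical marker of recent neuronal activity, read 7.63, 6.78 and 6.69 in isolated fish and 8.45, 8.54 and 8.99 in mirror fighters. Isolated array 1 was the highest control and still lay 0.82 below the lowest mirror array. The difference was 1.62 ± 0.27, or 3.08-fold (adjusted p = 0.192). The array carries 4 probe sets for fosab, and their differences ran from 0.97 to 1.86. The rest of the AP-1 list stood near 0. Among 8 measured AP-1 genes the median was 0.09, junba was at 0.20 ± 0.17, and maff, a small Maf partner factor, was lower on every mirror array (-0.25 ± 0.17).

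The gene npas4a encodes a transcription factor that neurons make in response to calcium entry. It read 7.78, 7.23 and 8.12 in isolated fish and 9.12, 9.14 and 9.77 in mirror fighters. The lowest mirror array was 1.01 above the highest control, and the difference of 1.64 ± 0.27 corresponded to 3.11-fold (adjusted p = 0.192). The orphan nuclear receptor nr4a1 read 5.71, 5.07 and 5.36 against 6.68, 6.44 and 7.12, a difference of 1.36 ± 0.29, or 2.57-fold (adjusted p = 0.566). Its relative nr4a2b, the other measured member of that family, was at 0.05 ± 0.19 with overlapping arrays. The early nuclear protein gene ier2a stood 0.84 ± 0.34 higher without overlap. For bhlhe41, a repressor that belongs to both the early and the clock lists, the value was -0.45 ± 0.23.

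**Figure D2:**
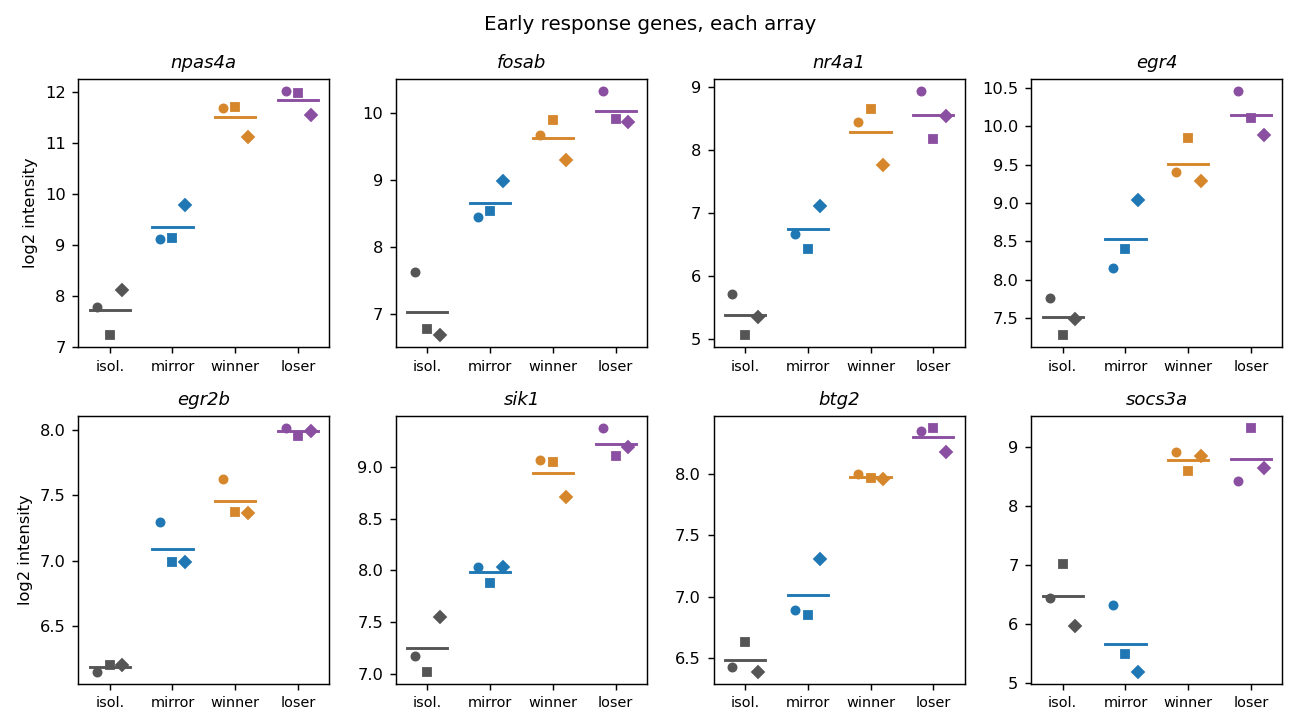
Log2 intensity (y axis) of 8 early response genes on each of the 12 arrays, by group (x axis), with circles, squares and diamonds for replicates 1, 2 and 3 and a line at each group mean. For npas4a, fosab, nr4a1, egr4, egr2b, sik1 and btg2 the 3 mirror arrays lie above the 3 isolated arrays and below the winner and loser arrays, while for socs3a they overlap the isolated arrays and lie below the others.

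Among the early genes that feed back on signalling, sik1, a kinase that restrains CREB-driven transcription, read 7.17, 7.02 and 7.55 in isolated fish and 8.03, 7.87 and 8.03 in mirror fighters. The mirror arrays were tightly grouped above the controls, with a difference of 0.73 ± 0.17, or 1.66-fold (adjusted p = 0.641). The antiproliferative gene btg2 was at 0.53 ± 0.15 without overlap, while a second, dim probe set for it read -0.00 ± 0.33. Of the 12 growth arrest and RNA decay genes 9 were below 0. Without overlap btg2 was the 1 higher (8.33%, against 4.94% of all probe sets). Tob1a (-0.31 ± 0.17) and tob1b (-0.18 ± 0.12) were lower without overlap (16.7%, against 5.78%). A second tob1b probe set read -0.28 ± 0.12. The polo-like kinase gene plk2b was at 0.46 ± 0.20. Of 21 kinase and cytokine feedback genes 13 were above 0 (61.9%, against 50.8% of all probe sets). At an unadjusted p under 0.05, 2 stood higher (9.52%, against 1.61% of all probe sets) and 3 lower (14.3%, against 2.23%). The sprouty gene spry4, an inhibitor of growth factor signalling, stood at -0.90 ± 0.40 without overlap. The NF-kB inhibitor nfkbiaa was at -0.85 ± 0.35 (-0.46 without isolated array 2, -1.28 without isolated array 3) and the cytokine signalling suppressor socs3a at -0.81 ± 0.35, both with overlapping arrays. Socs3a read 6.45, 7.01 and 5.98 in isolated fish and 6.33, 5.49 and 5.20 in mirror fighters. The MAP kinase phosphatase genes, which switch off ERK and related kinases and are early genes themselves, had a median of 0.08 over 6 members, with none at an unadjusted p under 0.05. Activity-regulated effectors, secreted and synaptic products of the early response, had a median of 0.05 over 9 members. The neurotrophin gene bdnf read 8.82, 8.73 and 9.05 against 8.83, 8.93 and 8.97, so that the groups overlapped (0.05 ± 0.14). Inhbaa, which encodes a subunit of activin, was the 1 effector whose arrays did not overlap (0.45 ± 0.33). That is 11.1% of the 9, against 4.94% of all probe sets higher without overlap.

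Taken over all roles, 81 of 123 listed early response genes were measured, with 49 above 0 and a median of 0.06. By role the medians not yet given were 0.71 for the 2 Nr4a genes, 0.09 for 19 other activity-regulated factors, 0.09 for 21 kinase and cytokine feedback genes and -0.03 for 12 growth arrest and RNA decay genes. Limma called none of them. At an unadjusted p under 0.05, 9 stood higher (11.1%) and 3 lower (3.70%), against 1.61% and 2.23% of all probe sets. Without overlap there were 12 higher and 5 lower, or 14.8% and 6.17%, against 4.94% and 5.78% of all probe sets. The early response was uneven across arrays as well as genes. Mirror array 3 was the highest mirror array for 7 of the 9 genes, and it also held the highest poly-A control reading of the 3. A fit with the poly-A controls as a covariate called 0 probe sets. The part of that reading in the early genes was not tested separately.

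Setting the mirror values beside the real fights showed which early genes had been called there. These comparisons share the mirror or the isolated arrays, and each gene's differences are given side by side. In real fights npas4a stood 3.79 (winners) and 4.14 (losers) above isolated fish, against 1.64 in mirror fighters, and losers exceeded mirror fighters by 2.5 (95% confidence interval 1.90 to 3.11, adjusted p = 0.00965). For fosab the differences from isolated fish were 2.59 and 3.00 against 1.62. For egr2b they were 1.27 and 1.80 against 0.91, and losers exceeded mirror fighters by 0.90 (adjusted p = 0.0302). The winner arrays for egr2b, at 7.37 to 7.62, came closest to the mirror arrays, and the winner minus mirror difference was 0.36 (0.08 to 0.65, adjusted p = 0.221).

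Socs3a had the widest gap to the real fights among the 17 early genes called in them. Winners read 8.60 to 8.91 and losers 8.42 to 9.32, above every mirror array. It was the 1 probe set that limma called between winners and mirror fighters (3.11, adjusted p = 0.043, 0.00645% of all probe sets), and losers exceeded mirror fighters by 3.12 (adjusted p = 0.00965). Losers against mirror fighters gave 22 probe sets called higher (0.142%) and 5 lower (0.0323%), and 11 of the 81 early genes were called higher there. Besides npas4a, egr2b and socs3a these were nr4a1, egr4, sik1, btg2, junba, pim1, bdnf and gadd45ba.

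In all, 17 early genes were called in winners or losers against isolated fish, where 0.187% and 0.258% of probe sets were called higher and 0.0581% and 0.31% lower. They were chosen against the same isolated arrays, so a count of those that also stood higher in mirror fighters would be no independent support. Of the 17, those not at an unadjusted p under 0.05 in mirror fighters were junba, gadd45ba, pim1, bdnf, dusp2, dusp5, egr1 and egr2a, several of which are named here after their values were seen. The AP-1 gene junba read 7.45, 7.34 and 7.50 on the mirror arrays, 7.06 to 7.41 in isolated fish, 8.24 to 8.89 in winners and 8.82 to 9.11 in losers. The mirror values of junba overlapped those of isolated fish and lay below each array of a real fight. The kinase gene pim1 differed from isolated fish by 0.08 ± 0.13 after the mirror fight, by 1.08 in winners and by 1.29 in losers. The growth arrest gene gadd45ba, which takes part in DNA demethylation in mouse neurons, was at -0.03 ± 0.19 against 1.32 and 1.25. For bdnf the values were 0.05 against 0.96 and 1.01.

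Glucocorticoid-responsive genes gave a second set of large differences. Klf9, a Krüppel-like factor gene that cortisol induces directly, read 7.13, 6.70 and 7.56 in isolated fish and 10.23, 9.25 and 9.31 in mirror fighters. The lowest mirror array stood 1.69 above the highest control, and mirror array 1 was the highest. The difference was 2.47 ± 0.73, or 5.53-fold (unadjusted p = 0.00632, adjusted p = 0.99). Fkbp5, a cochaperone gene that is induced by the glucocorticoid receptor and lowers its hormone affinity, read 8.06, 6.76 and 8.97 against 10.47, 9.51 and 9.80. Its control arrays spread over 2.22, yet none reached the mirror arrays, and the difference was 2.00 ± 0.78, or 3.99-fold (unadjusted p = 0.0278).

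The leucine zipper gene tsc22d3 (GILZ), which carries part of the anti-inflammatory action of the hormone, read 10.37, 10.06 and 10.57 in isolated fish and 10.93, 10.68 and 11.19 in mirror fighters (0.60 ± 0.17, 1.51-fold). Pfkfb4b, an enzyme gene that sets fructose 2,6-bisphosphate and thereby glycolysis, read 8.56, 8.38 and 8.76 against 9.86, 9.46 and 9.44 (1.02 ± 0.33, 2.03-fold). Neither gene overlapped between the groups. The dim tat, for tyrosine aminotransferase, a classical hormone-induced liver enzyme, was at 0.83 ± 0.33, and the dim txnipb, for a thioredoxin-binding protein, at 0.49 ± 0.20. Also without overlap were 2 dim genes, star (0.95 ± 0.45), which moves cholesterol into mitochondria for steroid synthesis, and pck1 (0.91 ± 0.52), of glucose synthesis, the latter named after its value was seen.

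Of 34 listed genes of glucocorticoid response and stress axis, 24 were measured, 17 were above 0 and the median was 0.39. Limma called none. At an unadjusted p under 0.05, 6 stood higher (25%, against 1.61% of all probe sets) and nfkbiaa lower. Without overlap 8 were higher (33.3%, against 4.94%) and cry2 was lower. The glucocorticoid receptor gene nr3c1 was at -0.20 ± 0.14, and pomca, the precursor gene of ACTH, was at 0.07 with overlapping arrays. The median was 0.15 with 32 added before log2 and 0.22 without the dimmest 25% of probe sets. Without 1 array it ran from 0.27 (mirror array 1) to 0.52 (mirror array 2). Isolated array 2 was the lowest control for 5 of the 6 genes and isolated array 3 the highest for 5 of the 6, so the controls varied in these genes together.

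**Figure D3:**
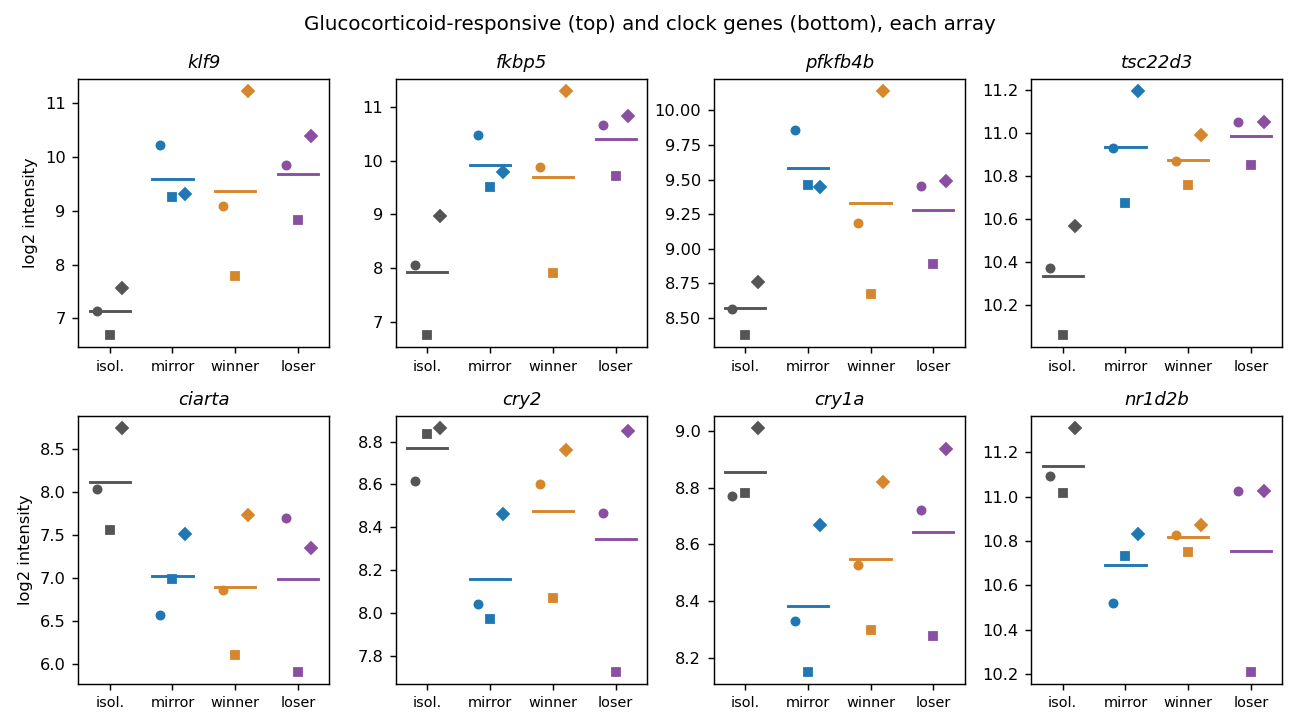
Log2 intensity (y axis) of 4 glucocorticoid-responsive genes (top) and 4 clock genes (bottom) on each of the 12 arrays, by group (x axis), with circles, squares and diamonds for replicates 1, 2 and 3 and a line at each group mean. The mirror arrays lie above the isolated arrays in the top row and below them in the bottom row, and the winner and loser arrays spread widely for klf9, fkbp5 and ciarta.

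The same genes were set beside the real fights, whose arrays are compared with the same mirror arrays. Winner minus mirror was -0.23 for klf9 (95% confidence interval -1.83 to 1.38) and loser minus mirror 0.09 (-1.52 to 1.70). For fkbp5 these differences were -0.23 (-1.96 to 1.5) and 0.48 (-1.25 to 2.21). The intervals are wide, because winner arrays ran from 7.80 to 11.22 for klf9 and from 7.90 to 11.30 for fkbp5. Winner array 2 was low and winner array 3 high in both. That winner spread also enters the SE and p-values given for both genes in mirror fighters. For tsc22d3, the tightest of the set, they were -0.06 (-0.44 to 0.32) and 0.05 (-0.33 to 0.43). No test of the early genes against the hormone genes was made.

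Clock genes leaned down. Of 25 measured, 19 were below 0 with a median of -0.18, and 5 were lower without overlap (20%, against 5.78% of all probe sets) while none was higher without overlap. Limma called none, and 2 stood lower at an unadjusted p under 0.05 (8%, against 2.23% of all probe sets). The 5 were cry1a, cry2 and the dim cry3a, all cryptochromes, ciarta, a repressor that acts on the CLOCK and BMAL1 pair, and nr1d2b, a nuclear receptor of the Rev-erb type. Ciarta and nr1d2b were named after their values were seen. Cry1a, which light induces in zebrafish, read 8.77, 8.78 and 9.01 in isolated fish and 8.33, 8.15 and 8.67 in mirror fighters (-0.47 ± 0.21). Cry2 read 8.61, 8.84 and 8.86 against 8.04, 7.97 and 8.46 (-0.62 ± 0.28). Mirror array 3 was the highest mirror array for both, 0.105 (cry1a) and 0.155 (cry2) below the lowest control. Ciarta read 8.04, 7.57 and 8.75 against 6.57, 6.98 and 7.52 (-1.10 ± 0.53), with a gap of only 0.05 between the nearest arrays. The activator genes of the clock were near 0, bmal1a at 0.09 and clocka at -0.07, and per2 was at -0.42 with overlapping arrays. The median kept its sign under every alternative and ran from -0.31 without isolated array 2 to -0.11 without isolated array 3. The labels do not give the hour of sampling, so time of day was not tested.

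Beyond these lists, 6 more genes were among the 12 that stood higher. The gene wu:fj62d01 read 6.58, 6.18 and 6.06 against 7.02, 7.02 and 7.14 (0.79 ± 0.17), and losers exceeded mirror fighters by 1.48 (adjusted p = 0.00965). Cnot7, a deadenylase of the CCR4-NOT complex that shortens mRNA tails, read 5.26, 5.07 and 5.03 against 5.75, 5.83 and 5.67 (0.63 ± 0.14). Relb, an NF-kB subunit gene, read 8.21, 8.51 and 8.39 against 8.93, 8.75 and 8.86 (0.48 ± 0.13). For cnot7 and relb the winner and loser arrays lay below every mirror array, at 8.10 to 8.39 for relb and 4.92 to 5.44 for cnot7. Neither gene was called between real fights and mirror fighters. Nr2e1, the tailless receptor gene of neural stem cells, was at 0.75 ± 0.18, with winners at 0.99 and losers at 0.94 above isolated fish. Mgarpa, for a mitochondrial membrane protein, was at 0.55 ± 0.13, with winners at 0.53 and losers at 0.46. Chmp2bb, of the ESCRT membrane-scission machinery, was at 0.52 ± 0.12, but its 2 other probe sets, both brighter in isolated fish, read -0.18 and -0.09. On the named probe set its winner arrays (6.52 to 6.70) and loser arrays (6.49 to 6.74) also lay below every mirror array. For cnot7, relb and chmp2bb, the choice of genes with high mirror arrays favours such a position.

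The 12 named genes that stood lower held several larger differences. All 12 also had winner and loser means below the same isolated arrays, and for 9 of them the mirror mean was the lowest of the groups. The choice of genes with low mirror and high isolated arrays favours both, so neither is independent support. Limma called rsf1b.1 lower in losers against isolated fish (-1.79, adjusted p = 0.0468). Rsf1b.1, for a subunit of a chromatin remodelling complex, read 8.02, 7.87 and 8.40 in isolated fish and 6.11, 5.83 and 5.87 in mirror fighters. The nearest arrays were 1.76 apart, and the difference was -2.16 ± 0.33, 4.46-fold lower (adjusted p = 0.167). A second probe set gave -1.11 ± 0.28. Dnm1a, for the dynamin that pinches synaptic vesicles off the membrane, read 8.17, 8.28 and 9.14 against 6.71, 6.33 and 6.35 (-2.06 ± 0.34). The other 15 measured genes of the synaptic vesicle list lay between -0.14 and 0.23. Slc20a2, a sodium-dependent phosphate transporter gene, read 7.48, 7.16 and 7.28 against 6.06, 5.94 and 6.09 (-1.27 ± 0.22).

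Tspan9b, a tetraspanin gene, read 5.84, 5.88 and 5.97 against 4.96, 4.75 and 4.97 (-1.0 ± 0.15), with all 6 arrays close to their group means. The DNA damage recognition gene ddb2 was at -1.16 ± 0.29, and the posterior homeobox gene hoxd10a at -0.80 ± 0.20. The lysosomal membrane gene laptm4b was at -0.82 ± 0.20, while its other, brighter probe set read -0.16 ± 0.16. The uncharacterized si:ch211-214p16.1 was at -1.86 ± 0.47 and zgc:175107 at -0.74 ± 0.18. Ergic2, of transport between endoplasmic reticulum and Golgi, was at -0.62 ± 0.16. For spint1b, a serine protease inhibitor gene, the named probe set gave -1.94 ± 0.31, but its 3 other probe sets, all dim, gave 0.43, 0.94 and -0.13. For atf7ip, a partner of a histone methyltransferase, the named probe set gave -0.53 ± 0.14 and the others -0.27, -0.02 and 0.03. The 0.03 came from the brightest of them, at 9.74 in isolated fish against 6.01 for the named probe set.

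**Figure D4:**
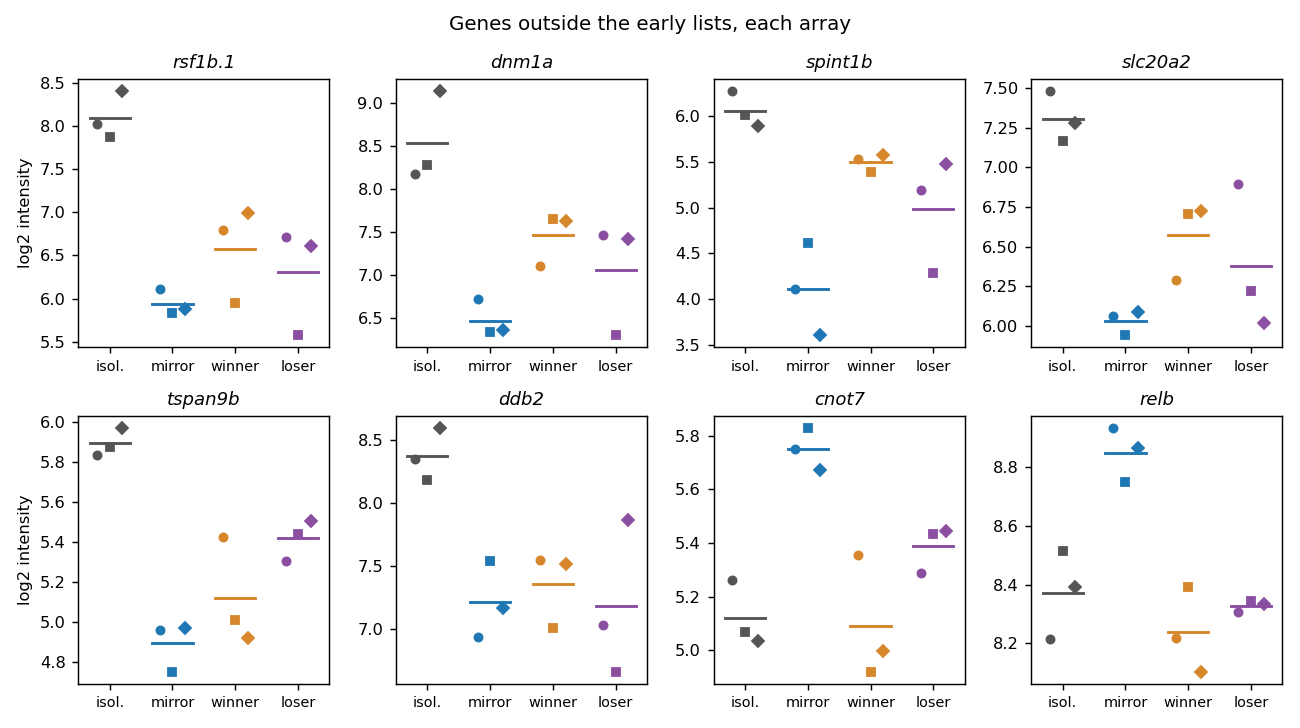
Log2 intensity (y axis) of 6 genes that stood lower and 2 that stood higher in mirror fighters, on each of the 12 arrays by group (x axis), with circles, squares and diamonds for replicates 1, 2 and 3 and a line at each group mean. For rsf1b.1, dnm1a, spint1b, slc20a2, tspan9b and ddb2 the mirror arrays lie below the isolated arrays, and for cnot7 and relb they lie above the arrays of all other groups.

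Immune genes leaned down in 2 lists, and the size of both medians varied with single arrays. Of 30 measured microglia and leukocyte markers, 25 were below 0 with a median of -0.34. Limma called none. Without overlap 4 were lower (13.3%, against 5.78% of all probe sets) and csf1ra was higher. Ptprc, the pan-leukocyte phosphatase gene CD45, read 6.85, 7.82 and 6.49 in isolated fish and 6.30, 5.61 and 5.60 in mirror fighters (-1.22 ± 0.54). The chemokine receptor gene cxcr4b was at -0.80 ± 0.29 (-0.52 without mirror array 2) and the dim tnfaip8l2a, a brake on immune signalling, at -0.91 ± 0.22. In contrast csf1ra, for the receptor that sustains microglia and also acts in pigment cells, read 5.24, 5.41 and 5.33 against 5.86, 5.53 and 6.03 (0.48 ± 0.20), and apoeb, which microglia express strongly, was at 0.18.

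The mean of the 30 markers ran from 7.01 to 7.81 on the isolated arrays and from 6.82 to 7.36 on the mirror arrays, so that the groups overlapped. Their summed intensity was 11440 to 22431 on the isolated arrays and 12473 to 16839 on the mirror arrays. Isolated array 2 held the highest mean. Without it the median was -0.18, and without isolated array 3 it was -0.53. In whole brain RNA, fewer cells of a type and less RNA per cell cannot be told apart. Interferon and innate response genes had a median of -0.46 over 20 measured, 16 of them below 0. The interferon median was -0.07 without isolated array 2 and -0.79 without mirror array 1. Without overlap relb was the 1 gene higher and the complement gene c4b the 1 gene lower. These shares of 5% each lie near the 4.94% and 5.78% of all probe sets.

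Markers of other cell types lay near 0. Neuronal markers had a median of 0.01 (20 measured), oligodendrocyte and myelin genes -0.02 (11), radial glia and astroglia genes -0.01 (23), endothelial and mural cell genes 0.02 (15) and blood cell genes 0.03 (20). Meningeal and matrix genes were at -0.10 (26), liver and plasma protein genes at 0.12 (28) and retina, lens, muscle and pituitary genes at 0.07 (35). The meningeal median turned to 0.04 without isolated array 1. Of 32 list medians, 14 changed sign when 1 array was left out. Of all the measured genes in these 8 lists 2 were at an unadjusted p under 0.05, both lower, against 3.83% of all probe sets. They were notch3, a receptor gene of mural cells (-0.47 ± 0.16), and the dim erythrocyte ankyrin gene ank1a (-1.18 ± 0.27).

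**Figure D5:**
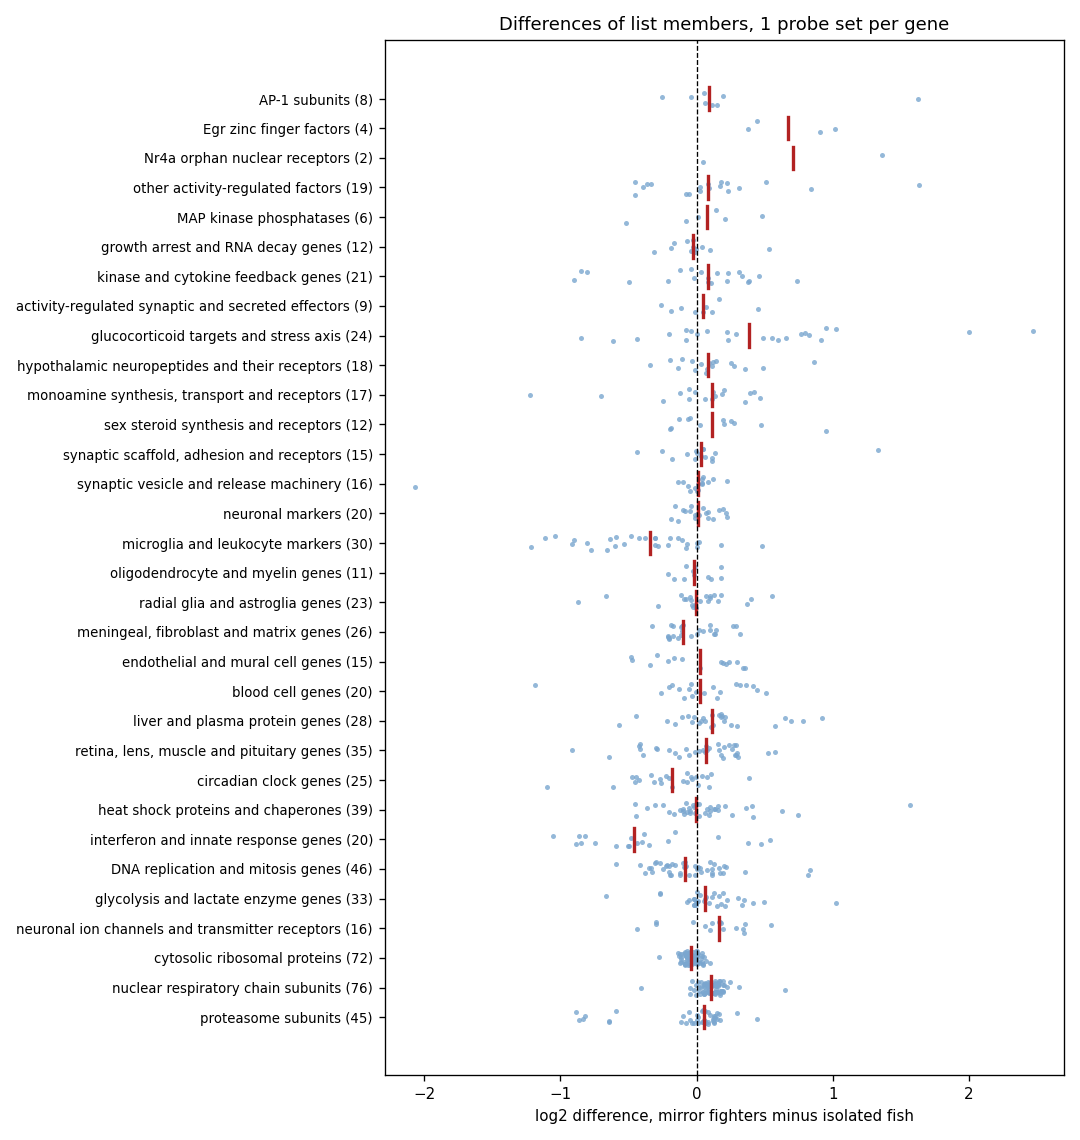
Log2 difference, mirror fighters minus isolated fish (x axis), for each measured member of 32 gene groups (y axis, with the number measured), 1 probe set per gene, as points with a red bar at the median. The Egr, Nr4a and glucocorticoid medians lie farthest to the right, at 0.67, 0.71 and 0.39, and those of interferon and microglial genes farthest to the left, at -0.46 and -0.34.

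The transmitter and peptide systems of social behaviour had small median differences, while some single genes differed more. Hypothalamic neuropeptides and their receptors had a median of 0.09 over 18 measured genes. The nonapeptide genes oxt and avp, for the fish counterparts of oxytocin and vasopressin, were at 0.11 and 0.09 with overlapping arrays. Sst6.2, a somatostatin gene, was at 0.36 ± 0.16, and pmchl, a gene of melanin-concentrating hormone, at 0.87 ± 0.50, also with overlap. Monoamine genes had a median of 0.12 over 17, with the serotonin enzyme gene tph2 at 0.42 and th, for the rate-limiting enzyme of dopamine synthesis, dim at -0.12. Without overlap 3 monoamine genes were lower (17.6%, against 5.78% of all probe sets) and none was higher. Among them the alpha-2 adrenergic receptor gene adra2b was at -0.70 ± 0.32, and its other probe set read -1.87 ± 0.73. The dim qdpra, for an enzyme that regenerates the cofactor of monoamine synthesis, stood at -1.22 ± 0.26. Its other probe set, also dim, read 0.09 ± 0.67. Sex steroid genes had a median of 0.11 over 12, with the brain aromatase gene cyp19a1b at -0.05. Without overlap 3 of them were higher (25%, against 4.94% of all probe sets), the dim star (0.95) among them, and none was lower. The others were the dim cyp17a1 (0.47 ± 0.37) and cyp19a1a, with gaps of only 0.08 and 0.03 between the nearest arrays. A second cyp17a1 probe set, also dim, read 0.15 ± 0.40 with overlapping arrays. Limma called none in these lists.

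Synaptic scaffold and receptor genes had a median of 0.03 (15 measured). The AMPA receptor gene gria2a was the 1 lower without overlap (-0.43 ± 0.23), with a gap of only 0.01 between the nearest arrays. That share of 6.67% lies near the 5.78% of all probe sets. Nrxn2a had the largest difference of the list, 1.33 with overlapping arrays. Neuronal channels and transmitter receptors had a median of 0.17 (16), which was 0.07 without mirror array 3 and also 0.07 without isolated array 1. The channel and receptor genes with the smallest p-values were glycine receptor genes, glra4a at 0.35 ± 0.17, glrba at 0.34 ± 0.17 and the dim glra3 at -0.30 ± 0.16.

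The median differences of the housekeeping lists were small. Single genes ran further, up to 1.57 among heat shock proteins and chaperones and down to -0.89 among proteasome subunits. Nuclear respiratory chain subunits, all 76 of them measured, had 69 above 0 with a median of 0.10, and 7 were higher without overlap (9.21%, against 4.94%). None was at an unadjusted p under 0.05, and uqcrc2b, of complex III, had the smallest p (0.22 ± 0.12). The mean level of the 76 genes was 10.61 to 10.998 on the isolated arrays and 10.88 to 11.08 on the mirror arrays, and without isolated array 3 the median was -0.01. The 72 cytosolic ribosomal protein genes had a median of -0.04, which became 0.00 when each array was centred on its median. Glycolysis genes had a median of 0.06 (33), heat shock proteins and chaperones -0.00 (39) and DNA replication and mitosis genes -0.09 (46), with the cyclin gene ccnb3 at -0.59 ± 0.19. Proteasome subunits had a median of 0.06 (45), which turned to -0.06 without isolated array 3, with psmd1 of the regulatory particle at 0.44 ± 0.18. That value was 0.23 without isolated array 1, and a second psmd1 probe set read 0.04 ± 0.17.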

How the data were processed

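The authors' deposited table holds linear intensity values, 1 for each array at each probe set. The submitters' processing notes name Partek 6.6 without its role, and the summary and normalization methods are not given in the sources used here. Per the labels, RNA extraction is described in conflicting ways, by a lipid tissue column kit and by Trizol. Each value was turned into log2 without an offset, and 115 control probe sets were left out, which left 15502. The platform annotation paired 10795 of them with 1 symbol, 135 with several and 4572 with none. Current names came from a zebrafish gene table (10711 matched), and no coordinates or sequences were used. Dim means a mean log2 under 5.02.

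Limma 3.58.1 in R 4.3.3 was fitted to all 12 arrays with 1 mean per group (8 residual and 2.55 prior degrees of freedom), with Benjamini-Hochberg adjustment over all probe sets of a comparison. All p-values are two-sided. Gene lists use the brightest probe set per gene. The script was tested on simulated data. The rule for naming took the 12 non-overlapping, not dim genes with the smallest p in each direction. From every list it took the 3 smallest p-values plus those at an unadjusted p under 0.05. Not all genes taken by this rule are printed above. Other list members are given outside it, among them egr1, bdnf, nr3c1, pomca, per2, apoeb, oxt, avp, tph2, th and cyp19a1b. The members and the 27 lists were chosen with earlier results of these data known, so they are not independent support. Alternatives covered normalization, offset, dim filter, arrays fitted, replicate block, moderation, array weights, averaged probe sets, a poly-A covariate and leaving out each array.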

Additional observations from a re-analysis of the deposited data

How the results depend on the processing

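The count of called probe sets was 0 under every alternative but array weights and 4 of the 12 fits without 1 array. With array weights, which set mirror array 1 to 7.25, isolated array 2 to 2.84 and the other 10 to 0.52 to 1.1, limma called 257 probe sets, 122 higher and 135 lower, and 3150 stood at an unadjusted p under 0.05. Without 1 array the count was 0 or 1. The 1 was an unnamed probe set without isolated array 1, igl1c1 (-3.81) without isolated array 3, an unnamed probe set without loser array 2, and ndrg4 (-3.68) without mirror array 2. The cause was not tested. Probe sets at an unadjusted p under 0.05 ran from 459 to 715 without 1 array, and were 950 with the poly-A controls as a covariate. Non-overlapping probe sets ran from 2682 to 3807 without 1 array, where fewer arrays overlap less often by construction. The early gene median of 0.06 ran from 0.048 to 0.113 without 1 array and was 0.104 after median centring. The difference in hybridization controls ran from -0.034 to 0.087 without 1 array, and turned below 0 without isolated array 3 (-0.028) or mirror array 3 (-0.034).

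The replicate numbers are not said to pair the samples. Deviations of same-numbered isolated and mirror arrays correlated at 0.05, -0.02 and 0.21. With the replicate block, limma called 0 probe sets, with 715 at an unadjusted p under 0.05 over all arrays and 1072 with the mirror and isolated arrays alone (874 without the block there).

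The alternatives were followed for 47 named differences, all at an unadjusted p under 0.05. Genes above that p, named only for the 3 smallest p-values of a list, were not followed. None of the 47 changed sign under any alternative, which the choice by p favours. Of the 47, 32 were called under array weights, against 257 of all 15502 probe sets, and under no other alternative. The choice by p favours these calls too, so they are no independent support. The sizes of the 47 were less stable, and 19 moved by over 1.5 times under some alternative. With 32 added before log2, ank1a went from -1.18 to -0.13, qdpra from -1.22 to -0.39, spint1b from -1.94 to -0.99, tat from 0.83 to 0.16 and txnipb from 0.49 to 0.15. Leaving out 1 array moved 4 by over 1.5 times, namely nfkbiaa, cxcr4b, psmd1 and txnipb (0.32 without isolated array 2). Signal near background limits what can be read from dim genes.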

Other observations

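The proteasome list held a subset that stood apart from the rest, chosen here after its values were seen and therefore given without a test. The inducible catalytic subunits psmb8a, psmb9a and psmb10, which replace constitutive ones when cells present antigen, were at -0.82, -0.59 and -0.89, and the related psmb12 and psmb13a at -0.64 and -0.86. The interferon-inducible activator genes psme1 and psme2 were at -0.83 and -0.64. The other 38 proteasome genes lay between -0.12 and 0.44. Psmb8a read 7.50, 8.28 and 6.03 in isolated fish and 7.57, 6.27 and 5.51 in mirror fighters, so that the groups overlapped and isolated array 2 was highest. Psmb10 was the 1 of these 7 genes without overlap, at 8.13, 8.79 and 7.54 against 7.40, 7.35 and 7.05. The interferon list shares psmb8a, psmb9a and psmb13a with it.

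The chaperone gene calr had the largest difference of its list, 1.57 ± 0.91, and its control arrays read 9.93, 9.02 and 5.50 against 9.11 or more on the mirror arrays. Isolated array 3 alone was low, and calr was named after its values were seen. Of the 50 probe sets with the smallest p, 18 carry no gene symbol, among them a dim one that read 2.35, 1.54 and 1.68 in isolated fish and 4.32, 4.91 and 5.41 in mirror fighters (3.03 ± 0.43, adjusted p = 0.135).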
